A study of Rattus norvegicus with 6 samples.

Results

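The genes described here are 34 rat genes that encode nuclear receptors and the coregulators that bind them, read in liver RNA. They were taken as a list of gene symbols, by family and function, out of 15284 named genes on the array. Probes matched 28 of the 34 genes (60 probes), and 27 genes had a probe bright enough to test. Rarb, Rora, Nr6a1, Ncoa1, Ncoa3 and Ncor1 had no matched probe and were not analysed here. The vitamin D receptor Vdr had 2 probes, neither of which could be tested.

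The livers came from 6 male Sprague-Dawley rats, bought at 5 weeks of age. All 6 were kept on a basal diet. The controls (n = 3) received corn oil, the vehicle, and the treated rats (n = 3) received 1000 mg/kg/day of BBMP, which is 2,2-bis(bromomethyl)-1,3-propanediol. This compound is a brominated flame retardant. The labels give the time as 28 days in the series design and as 9 weeks in the treatment protocol, and they name no genetic modification. RNA from each rat was read on its own 1-colour Agilent array. The control arrays shared 1 slide and scan and the BBMP arrays shared another. Differences between the groups, and effects of slide or scan, therefore cannot be told apart. The question is how transcript levels in BBMP livers compare with those in vehicle livers.

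Nuclear receptors are transcription factors that bind DNA and, in most cases, a small fat-soluble ligand such as a bile acid, a sterol, a fatty acid, a retinoid or a steroid hormone. Many act as pairs with a retinoid X receptor (RXR). Binding of ligand exchanges corepressors, which hold a gene off, for coactivators, which open its chromatin. In liver, CAR and PXR drive enzymes that clear foreign compounds, FXR and its repressive partner SHP restrain bile acid synthesis, LXR governs cholesterol export and lipid synthesis, and PPAR-alpha governs fatty acid oxidation.

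Between 60.1% and 64.4% of the 61573 probes on each array exceeded background clearly, and precision is limited by how few arrays there are. Any 2 arrays correlated at 0.986 to 0.992 (Pearson, across 28112 features). Corn oil 2 stood apart on the main axis of variation, with a score of -50.8. Scores of corn oil 1 and corn oil 3 were -9.6 and -14.8, and those of BBMP livers were 19.1 to 28.7. Liver identity was checked with hepatocyte markers: all 8 listed were tested, 4 were higher and 4 lower after BBMP, and their summed level lay at 12.02 to 12.11 in corn oil and at 11.84 to 12.08 in BBMP livers. In bulk liver, fewer cells of a type and less RNA per cell cannot be told apart. Every level below is the log2 brightness of a probe minus the log2 of the 75th percentile of its array, so levels of different genes are not set against each other. Every difference is BBMP minus corn oil on this log2 scale, from limma, with its standard error (SE) and n = 3 per group.

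Transcript levels of most of these receptors differed little between the groups, and the small heterodimer partner SHP (Nr0b2) differed most. Of the 27 tested genes, 0 passed limma's adjusted p of 0.05, a threshold that 0.00711% of all 28112 features passed. At an unadjusted limma p under 0.05 there were 4 genes (14.8%), against 10.8% of all features: Nr0b2 and Rxrb were higher and Nr2f1 and Nr2c2 were lower in BBMP livers. Groups did not overlap for 5 genes (18.5%), the same 4 and Nr1h2, against 17.9% of all features. Both shares lie near those of all features. In all, 12 genes were higher and 15 lower, with a median difference of -0.06 beside -0.01 over all features. The median size of the difference was 0.14, beside 0.15 over all features. Without corn oil 2, Nr0b2 alone (1 of 27) had an unadjusted limma p under 0.05, a share to be read against 6.88% of all features in that fit. The number was 2 (against 10.7%, 8.91% and 9.8% of all features) without corn oil 3, without BBMP 2 and without BBMP 3, and Nr0b2 was among the genes each time.

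**Figure D1:**
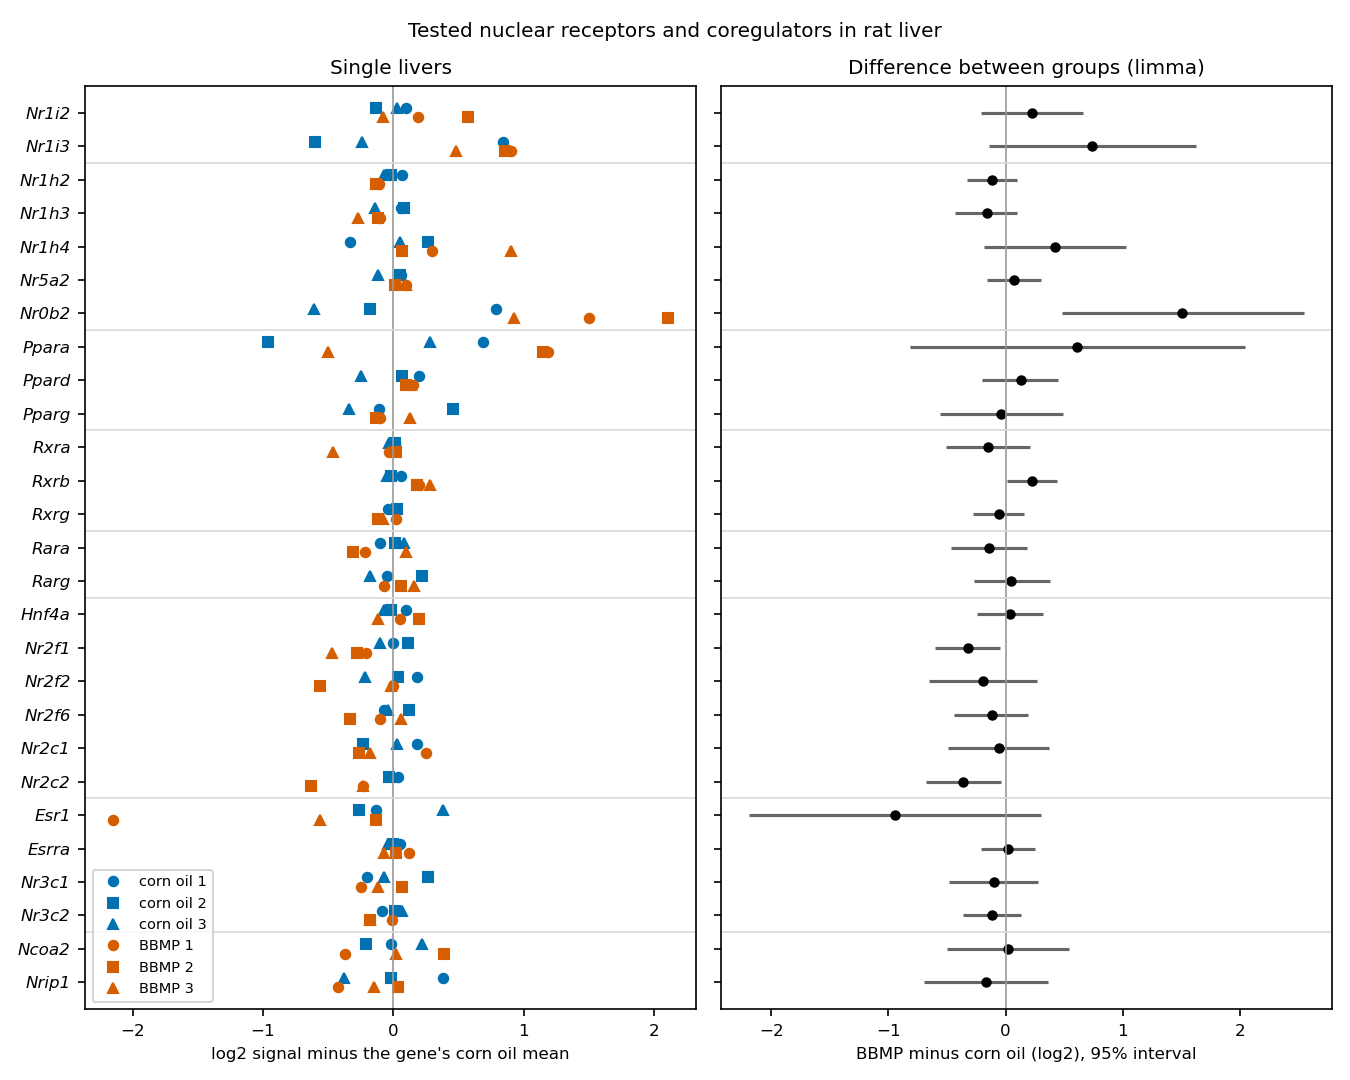
Levels and differences of the 27 tested genes. The left panel plots each liver's log2 signal minus the gene's corn oil mean (blue, corn oil; orange, BBMP; marker shape, replicate number), and the right panel plots the limma difference, BBMP minus corn oil in log2 units, with its 95% interval; grey lines part the functional groups. Nr0b2 lies farthest to the right at 1.51 and Esr1 farthest to the left at -0.94, while the intervals of 23 of 27 genes include 0. Esr1 is near the limit of measurement and was tested only through corn oil livers, where it was higher.

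The intervals show how much change the spread between livers of a group could have hidden. They leave out any shift between slides or scans. The 95% interval of the difference stayed within 1 log2 unit of 0 for 22 of 27 genes and within 0.5 for 14. It was wider than 1 unit on at least 1 side for Nr1i3, Nr1h4, Ppara, Esr1 and Nr0b2. The spread between livers of a group was small for most genes, with a median SD of 0.12 in corn oil and 0.19 in BBMP livers, and it exceeded 0.5 for 3 genes in each group. No liver was low or high throughout: the median over the 27 genes, relative to their corn oil means, ranged from -0.08 in BBMP 3 to 0.05 in corn oil 1. Corn oil 1 was nevertheless the highest of its group for 15 of 27 genes and corn oil 3 the lowest for 14.

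Receptors for bile acids and sterols held the largest difference. Nr0b2 encodes SHP, an orphan receptor with no DNA-binding domain that represses other receptors and is itself switched on by FXR. Its levels were 5.98, 5.01 and 4.58 in the corn oil livers and 6.69, 7.30 and 6.12 in the BBMP livers. Every BBMP liver was above every corn oil liver, although corn oil 1 came close to BBMP 3. The difference was 1.51 ± 0.43 (SE), or 2.85-fold, with a 95% interval of 0.48 to 2.55 (limma unadjusted p = 0.0113, adjusted p = 0.404). By p it ranked 789 of 28112 features, and its size lay at the 99.6 percentile of all differences. Leaving out each liver in turn gave differences from 1.21 to 1.91. Nr0b2 stayed at an unadjusted limma p under 0.05 in each of 16 alternative analyses, and its adjusted p ranged from 0.314 to 0.703. It was read by 1 probe, so no other probe on the array bears on this value.

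The promoter of Nr0b2 is shown because SHP is a textbook target of LRH-1 (Nr5a2), which binds as a single receptor at sites with the core TCAAGG. The window is the 250 bases before the gene's start, from RefSeq on the GRCr8 assembly at chr5:151062910-151063159, plus strand, with matches to that core in capitals. The window of Nr5a2 itself, at chr13:50984939-50985188 on the minus strand, is set beside it with its match to AGGTCA in capitals, the hexamer that many nuclear receptors bind.
Nr0b2: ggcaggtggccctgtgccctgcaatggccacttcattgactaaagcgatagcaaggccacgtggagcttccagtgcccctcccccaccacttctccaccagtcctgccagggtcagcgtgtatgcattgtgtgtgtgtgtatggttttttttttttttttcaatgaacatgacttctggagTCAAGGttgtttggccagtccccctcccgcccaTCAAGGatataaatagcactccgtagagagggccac
Nr5a2: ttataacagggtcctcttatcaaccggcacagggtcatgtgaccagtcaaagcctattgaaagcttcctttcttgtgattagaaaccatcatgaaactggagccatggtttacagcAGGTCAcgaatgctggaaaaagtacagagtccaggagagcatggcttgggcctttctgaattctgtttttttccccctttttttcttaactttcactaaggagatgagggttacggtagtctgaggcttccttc
The Nr0b2 window held TCAAGG 2 times on its own strand, beginning 69 and 36 bases before the start, and held no AGGTCA. Both strands were searched, TCAAGG also as CCTTGA. The other motif, AGGTCA, was searched in the same way and can overlap it, sharing the letters AGG. Of 33469 promoter windows in the table, 12.6% held TCAAGG and 0.98% held it at least 2 times. Windows were present for 28 of the 34 genes, and among these TCAAGG was present only in that of Nr0b2. The hexamer AGGTCA was found in 14.1% of all windows and in those of Nr5a2, 134 bases before the start, and Rarg, 225 bases before it. These matches describe the letters of the windows and were not tested as binding sites.

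Of the receptors that act on Nr0b2, Nr5a2 was close to level and Nr1h4 had a wide interval. Nr5a2 levels were 1.30, 1.29 and 1.12 in corn oil and 1.34, 1.25 and 1.34 in BBMP livers, which overlap. The difference was 0.07 ± 0.10 (SE), with a 95% interval of -0.16 to 0.30, which ends below the lower bound for Nr0b2. Nr1h4, which encodes the bile acid receptor FXR, was at 4.54, 5.14 and 4.92 in corn oil and at 5.17, 4.94 and 5.77 in BBMP livers. BBMP 3 was the highest and corn oil 1 the lowest, and the groups overlapped. The difference was 0.42 ± 0.25 (SE), with a limma adjusted p of 0.57, and its 3 probes gave 0.37 to 0.50. Its 95% interval, -0.18 to 1.03, overlapped that of Nr0b2, and the genes were not tested against each other. The Nr1h4 difference was 0.26 without corn oil 1 and 0.19 without BBMP 3. It was 0.58 (limma unadjusted p = 0.0404) with normexp, another background correction.

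The oxysterol receptors were close to level. Nr1h2 (LXR-beta) was at 3.11, 3.02 and 2.97 in corn oil and at 2.93, 2.91 and 2.91 in BBMP livers. Every BBMP liver was just below every corn oil liver, yet the difference was only -0.12 ± 0.09 (SE; limma adjusted p = 0.66), and it was 0.01 with normexp background correction. Nr1h3 (LXR-alpha), the form that predominates in liver, differed by -0.16 ± 0.11 (SE).

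**Figure D2:**
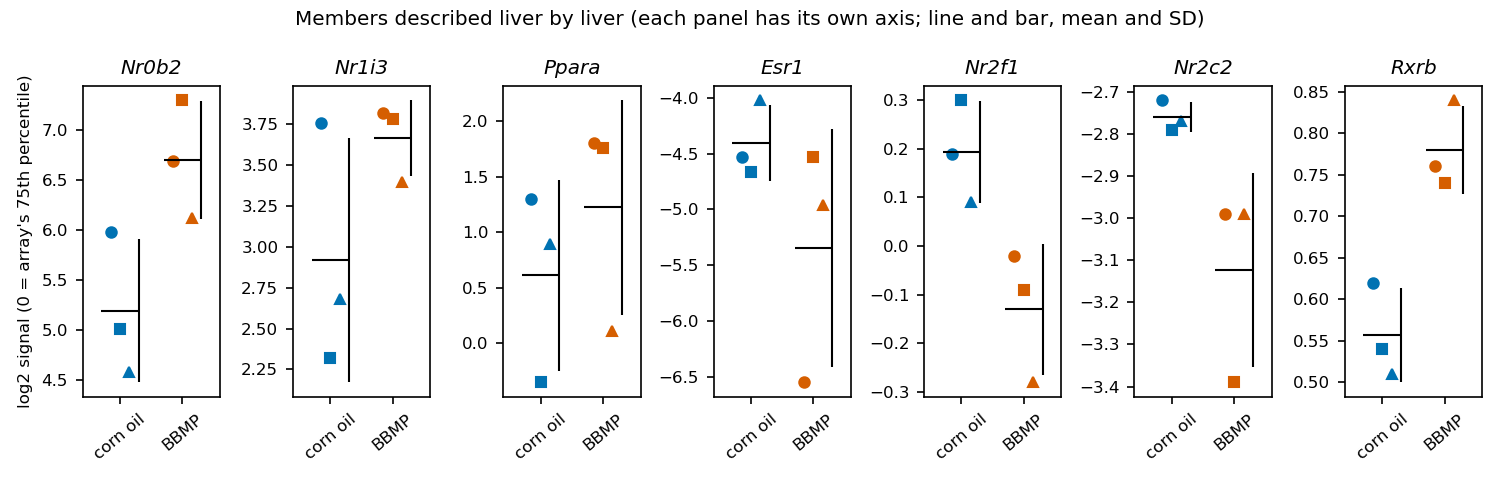
Levels of 7 genes in the 6 livers. Each panel has its own vertical axis in log2 signal, where 0 is the 75th percentile of the array; points are single livers (circle, square and triangle for replicates 1, 2 and 3), and the line and bar give the group mean and SD. Groups do not overlap for Nr0b2, Nr2f1, Nr2c2 and Rxrb; corn oil 1 lies among or near the BBMP livers for Nr1i3, and Ppara spreads over 1.64 log2 units within corn oil and 1.70 within BBMP.

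The xenobiotic receptors were both higher on average in BBMP livers, without passing the test. Nr1i3 encodes CAR, which induces Cyp2b enzymes in response to phenobarbital and related compounds. Its levels were 3.76, 2.32 and 2.68 in corn oil livers and 3.82, 3.78 and 3.40 in BBMP livers. The BBMP livers lay close together, corn oil 1 lay among them, and corn oil 2 was the lowest. The difference was 0.74 ± 0.37 (SE), with a 95% interval of -0.14 to 1.63 (limma unadjusted p = 0.0862, adjusted p = 0.511). Corn oil 1 set much of this spread: without it the difference was 1.16 (limma unadjusted p = 0.00147), and without corn oil 2 it was 0.44. All 4 probes of Nr1i3 were higher in BBMP livers on average, by 0.48 to 0.74, and in each of them corn oil 2 was the lowest liver. The probes read the same RNA and do not add livers.

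Nr1i2 encodes PXR, which senses steroids and many drugs and induces Cyp3a enzymes. It was at 6.21, 5.98 and 6.14 in corn oil and at 6.30, 6.68 and 6.03 in BBMP livers. BBMP 2 was the highest, BBMP 3 lay within the corn oil range, and the difference was 0.23 ± 0.18 (SE; limma adjusted p = 0.666). Its other probe gave 0.28. The difference was 0.06 without BBMP 2, 0.39 without BBMP 3 and 0.37 with normexp background correction.

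Their target list was a broad one and held 30 tested genes of 30. Not all of its genes are known to be induced by CAR or PXR, so no shared direction applies. Of the 30 genes, 21 were higher and 9 lower. An unadjusted limma p under 0.05 was found for 12 (9 higher, 3 lower), and 0 passed adjustment. That is 40.0% of the list, against 10.8% of all features. The median difference was 0.31, beside -0.01 over all features. Cyp2b1, a phenobarbital-inducible P450, was at 4.15, 3.76 and 3.92 in corn oil and at 4.93, 4.76 and 4.60 in BBMP livers, without overlap. It differed by 0.82 ± 0.14 (SE), Cyp2b2 by 0.82 ± 0.15 and Cyp2b15 by 0.59 ± 0.10, each with a limma adjusted p of 0.314. With the mean of its probes Cyp2b15 differed by 0.19. Cyp2b1 and Cyp2b2 are near-identical copies, and probes of these P450 genes may share transcripts. The 5 Cyp3a genes of the list, named after their values were seen, did not share 1 direction. Cyp3a62 differed by 0.90 ± 0.27 without overlap (SE; limma unadjusted p = 0.0152, adjusted p = 0.406), Cyp3a23-3a1 by 0.53 ± 0.28, Cyp3a18 by 0.25 ± 0.17, Cyp3a2 by 0.09 ± 0.25 and Cyp3a9 by -0.84 ± 0.53.

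Among the PPARs, receptors for fatty acids and their derivatives, Ppara varied widely between livers of the same group. Ppara, the main form in hepatocytes and the target of fibrate drugs, was at 1.30, -0.35 and 0.89 in corn oil livers and at 1.80, 1.76 and 0.11 in BBMP livers. Corn oil 2 and BBMP 3 were low and the other livers were high, so the groups overlapped widely. The difference was 0.61 ± 0.59 (SE), with a 95% interval of -0.82 to 2.04 (limma adjusted p = 0.731). It ranged from 0.13 without corn oil 2 to 1.17 without BBMP 3, and the other probe of Ppara gave 0.66 with the same livers low. Pparg, the form best known from fat cells, differed by -0.04 ± 0.22 (SE). Ppard, a form expressed in most tissues, differed by 0.13 ± 0.14 (SE) in the probe used and by -0.33 in its other tested probe.

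Known PPAR-alpha targets were mixed. Of 28 tested genes, 16 were higher and 12 lower, with a median difference of 0.11. In all, 3 (10.7%) had an unadjusted limma p under 0.05, against 10.8% of all features, and 0 passed adjustment. Ehhadh, an enzyme of peroxisomal fatty acid oxidation, was at 4.93, 4.05 and 4.43 in corn oil and at 5.41, 5.41 and 5.80 in BBMP livers, without overlap. It differed by 1.07 ± 0.24 (SE; limma adjusted p = 0.375), and Pex11a, a protein of peroxisome division, by 0.55 ± 0.11 (adjusted p = 0.35). Pdk4, which blocks the entry of pyruvate into the citric acid cycle, went the other way at -0.95 ± 0.16 (limma adjusted p = 0.314).

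RXRs are the shared partners of the receptors above. Rxrb was at 0.62, 0.54 and 0.51 in corn oil and at 0.76, 0.74 and 0.84 in BBMP livers. All BBMP livers were higher, by a small margin: the difference was 0.23 ± 0.09 (SE), or 1.17-fold (limma unadjusted p = 0.0439, adjusted p = 0.457). The other probe of Rxrb gave 0.20, with groups that overlapped, and with normexp background correction the difference was 0.13. Rxra, the main hepatic form, differed by -0.15 ± 0.15 (SE), with BBMP 3 at -0.56 and the other 5 livers between -0.13 and -0.08. Without BBMP 3 the difference was 0.0027. Rxrg differed by -0.06 ± 0.09 (SE), and 1 of its 3 probes was of opposite sign at 0.11.

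The retinoic acid receptors, which bind the acid form of vitamin A, were close to level. Rara differed by -0.14 ± 0.14 and Rarg by 0.05 ± 0.13 (SE). For Rara the other probe was of opposite sign at 0.06. The vitamin D receptor Vdr was near the limit of the array: 1 of its probes was well above background in 1 of 3 corn oil and 2 of 3 BBMP livers, and the other in 0 livers. Its usual target Cyp24a1 was not tested either.

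Known retinoic acid targets, 8 tested of 10 listed, were higher for 5 and lower for 3, with a median of 0.18. An unadjusted limma p under 0.05 was found for 1 (12.5%), against 10.8% of all features, and 0 passed adjustment. Rbp7, a retinoid-binding protein, was at -3.03, -2.49 and -2.64 in corn oil and at -1.93, -1.32 and -1.63 in BBMP livers, without overlap. Its difference was 1.10 ± 0.21 (SE; limma adjusted p = 0.314), and 0.57 with normexp background correction. Cyp26b1, an enzyme that degrades retinoic acid, differed by 1.24 ± 0.52 and Tgm2, a transglutaminase, by 0.28 ± 0.12 (SE).

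The NR2 receptors other than the RXRs share their DNA sites with RXR heterodimers. Of 6 tested, 5 were lower in BBMP livers, beside 14750 of all 28112 features. Nr2f1 encodes COUP-TFI, which is often a repressor. In the probe used it was at 0.19, 0.30 and 0.09 in corn oil and at -0.02, -0.09 and -0.28 in BBMP livers. All BBMP livers were below all corn oil livers, and the difference was -0.32 ± 0.11 (SE), or 1.25-fold (limma unadjusted p = 0.0282, adjusted p = 0.428). Its other probes differed by -0.20 and 0.37. The last was well above background in 2 of 3 corn oil and 3 of 3 BBMP livers, so it was tested only through the group where it was high. The mean of the 3 probes differed by -0.05. Nr2f2 (COUP-TFII), which is expressed in several non-parenchymal cells, differed by -0.19 ± 0.19 (SE) and overlapped between groups. It was -0.10 without corn oil 1, -0.30 without corn oil 3, -0.29 without BBMP 1 and -0.01 without BBMP 2.

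Markers of stellate cells, which store vitamin A and lie between hepatocytes and sinusoids, are given beside these values. Of 9 listed, all tested, 3 were higher and 6 lower. An unadjusted limma p under 0.05 was found for 3 (33.3%), all lower, against 10.8% of all features. Lrat, which esterifies vitamin A, differed by -0.49 ± 0.14, Pdgfrb, a growth factor receptor, by -0.53 ± 0.16 and the collagen Col3a1 by -0.34 ± 0.13 (SE; limma adjusted p from 0.406 to 0.449). Of those higher, Des differed by 0.18 ± 0.10 without overlap, Dcn by 0.17 ± 0.21 and Hgf by 0.06 ± 0.21 (SE). The summed level of all 9 markers lay at 6.75 to 7.60 in corn oil and at 6.36 to 7.25 in BBMP livers. Endothelial markers, 5 tested of 7, were higher for 4 and lower for 1, and their sums overlapped (5.23 to 5.52 and 5.35 to 5.54); Stab2 and Clec4g were not tested. The part of either cell type in the Nr2f1 and Nr2f2 values was not tested.

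Nr2c2 encodes TR4, an orphan receptor that occupies sites of other receptors. It was at -2.72, -2.79 and -2.77 in corn oil and at -2.99, -3.39 and -2.99 in BBMP livers. BBMP 2 was the lowest, and all BBMP livers lay below all corn oil livers. The difference was -0.36 ± 0.13 (SE), or 1.28-fold (limma unadjusted p = 0.0339, adjusted p = 0.436). The other probe gave -0.35 with groups that overlapped, and with normexp background correction the difference was -0.13. Its relative Nr2c1 (TR2) differed by -0.06 ± 0.18 (SE), and Nr2f6, a repressor of the COUP family, by -0.12 ± 0.13, with its 3 probes from -0.12 to 0.08.

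Hnf4a, which sustains the hepatocyte programme, was at 0.18, 0.06 and 0.01 in corn oil and at 0.13, 0.28 and -0.04 in BBMP livers. The groups overlapped, the difference was 0.04 ± 0.12 (SE) with a 95% interval of -0.24 to 0.32, and its 3 probes gave 0.04 to 0.11. All 18 listed targets were tested, with 5 higher, 13 lower and a median of -0.15. Among them 1 (5.56%) had an unadjusted limma p under 0.05, against 10.8% of all features, and 0 passed adjustment. Cps1, the entry enzyme of the urea cycle, differed by 0.49 ± 0.20, the apolipoprotein Apoa4 by -0.50 ± 0.22 and the clotting factor F7 by -0.31 ± 0.14 (SE). With quantile normalisation that median was -0.07.

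Steroid hormone receptors and the oestrogen-related receptor came next. Esr1, the oestrogen receptor alpha, was at -4.53, -4.66 and -4.02 in corn oil and at -6.55, -4.53 and -4.96 in BBMP livers. BBMP 1 was far below the rest and the groups overlapped. These values lie near the limit of measurement, since the dimmest probes well above background lay between -5.40 and -4.89 (-5.25 in BBMP 1). Esr1 was well above background in 3 of 3 corn oil and 2 of 3 BBMP livers, so it was tested only through the group where it was high. The difference was -0.94 ± 0.52 (SE; limma adjusted p = 0.545), it was -0.34 without BBMP 1, and it was -0.20 with normexp background correction.

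The glucocorticoid receptor Nr3c1 differed by -0.10 ± 0.16 (SE), with 3 probes that were all lower. The mineralocorticoid receptor Nr3c2 differed by -0.12 ± 0.10 (SE). Esrra, which drives mitochondrial genes together with PGC-1, differed by 0.02 ± 0.10 (SE), with a 95% interval of -0.21 to 0.25.

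Glucocorticoid targets, all 18 tested, were higher for 13 and lower for 5, with a median of 0.19. Among them 2 (11.1%) had an unadjusted limma p under 0.05, against 10.8% of all features, and 0 passed adjustment. Sgk1, a kinase induced by corticosteroids, differed by -0.58 ± 0.22, Tdo2, which degrades tryptophan, by 0.72 ± 0.29 and Sds, which degrades serine, by 1.21 ± 0.61 (SE). Without corn oil 2 Sgk1 was at -0.34, and without BBMP 2 Tdo2 was at 0.43 and Sds at 0.51. BBMP livers disagreed on this list: its mean over genes, relative to each gene's mean over the 6 livers, was 0.20, 0.64 and -0.43, around the corn oil values of -0.17, -0.34 and 0.09. Targets of Esrra and PGC-1, 11 tested of 12, were higher for 5 and lower for 6, with a median of -0.03. Pdk4, 1 gene (9.09%), had an unadjusted limma p under 0.05, against 10.8% of all features, and 0 passed adjustment.

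Only 2 of the 5 listed coregulators could be tested. Ncoa2, a p160 coactivator also known as GRIP1, was at -3.33, -3.52 and -3.09 in corn oil and at -3.68, -2.92 and -3.29 in BBMP livers, which overlap. It differed by 0.02 ± 0.22 (SE), with a 95% interval of -0.50 to 0.54. Nrip1, which encodes the corepressor RIP140, was at 1.68, 1.28 and 0.92 in corn oil and at 0.88, 1.34 and 1.15 in BBMP livers. It differed by -0.17 ± 0.22 (SE) in the probe used, and its 4 probes were all lower, by -0.45 to -0.17. In the 3 probes not used for the gene, corn oil 2 was the highest liver.

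**Figure D3:**
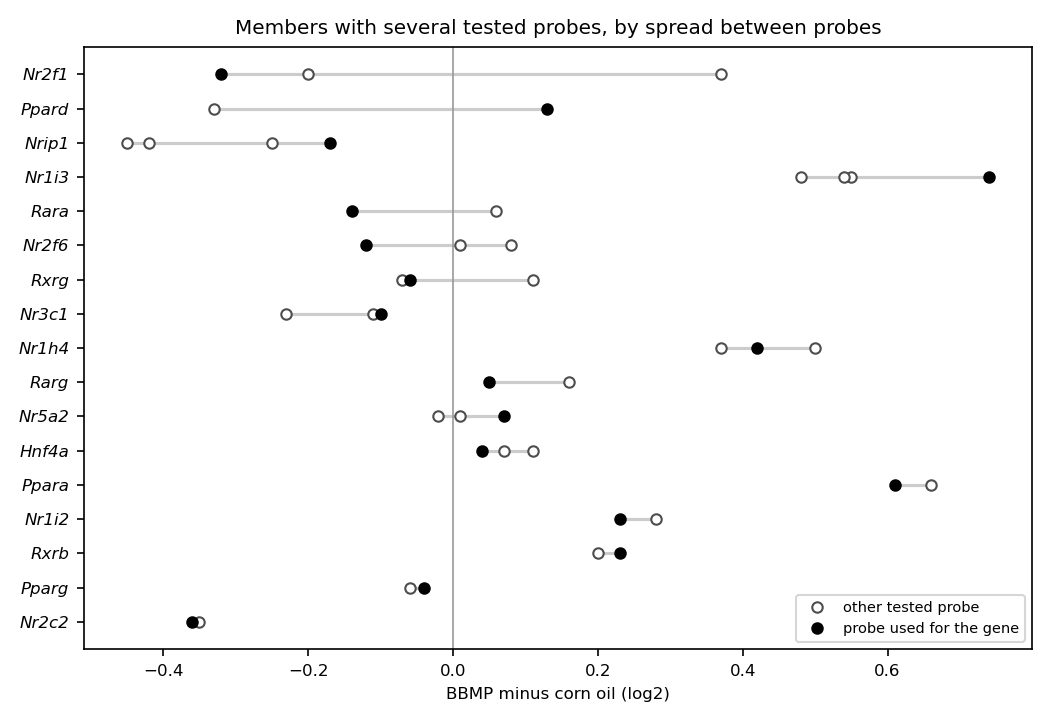
Differences of the 17 genes with several tested probes. Each point is a probe's log2 difference, BBMP minus corn oil (filled, the probe used for the gene; open, its other tested probes), with genes ordered by the spread between their probes. All probes lie on the same side of 0 for 11 genes, and Nr2f1 spans the widest range, from -0.32 to 0.37. The Nr2f1 probe at 0.37 was near the limit of measurement and was tested only through BBMP livers, where it was higher.

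Probes of a gene can bind different transcripts or parts of a transcript, and 17 of the tested genes had several tested probes. For 11 of them every probe had the same sign, among them Nr1i3, Nr1i2, Nr1h4, Ppara, Rxrb and Nr2c2. For 6 genes, Ppard, Rxrg, Rara, Nr2f1, Nr2f6 and Nr5a2, the probes had both signs. Among these, the probes of Nr2f1 and Ppard lay more than 0.3 apart. For Nr2f1 the positive sign came from 1 dim probe, tested only through the group where it was high.

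Other genes of the family were looked at for context. Of 19 further nuclear receptors listed, 8 were tested, with 5 higher, 3 lower and a median of 0.08. An unadjusted limma p under 0.05 was found for 2 (25.0%), against 10.8% of all features, and 0 passed adjustment. Thrb, a thyroid hormone receptor, was at -4.71, -4.64 and -4.97 in corn oil and at -4.31, -4.16 and -4.43 in BBMP livers, without overlap but near the limit of measurement. It differed by 0.47 ± 0.13 (SE; limma adjusted p = 0.399), and by 0.10 with normexp background correction (limma unadjusted p = 0.468). The immediate-early orphan receptors Nr4a2 and Nr4a1 differed by -0.44 ± 0.14 and -0.35 ± 0.17 (SE; limma adjusted p = 0.409 and 0.497).

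Of 24 further coregulators, 15 were tested, with 8 higher, 7 lower and a median of 0.01. Among them 2 (13.3%) had an unadjusted limma p under 0.05, against 10.8% of all features, and 0 passed adjustment. Ppargc1b, a coactivator of the PGC-1 family, was at -0.99, -1.09 and -0.04 in corn oil and at 0.13, 0.20 and -0.07 in BBMP livers. Corn oil 3 lay among the BBMP livers, and the difference was 0.79 ± 0.29 (SE; limma adjusted p = 0.433). Prmt1, an arginine methyltransferase that methylates histones, differed by -0.18 ± 0.10 (SE).

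Genes downstream of FXR, SHP and LRH-1 were tested for 15 of 18 listed, a list that includes Nr0b2 itself. Not all are bile acid genes, since Fetub, Kng1, Apoc3, Sdc1 and Pltp are among them. The list also mixes genes that FXR switches on, such as Nr0b2, with genes of bile acid synthesis, which FXR restrains. The tested genes were higher for 6 and lower for 9, with a median of -0.22. Nr0b2 and Fgfr4, 2 genes (13.3%), had an unadjusted limma p under 0.05, against 10.8% of all features, and 0 passed adjustment. Fgfr4, the hepatic receptor for the gut signal that restrains bile acid synthesis, was at -0.24, -0.20 and -0.24 in corn oil and at -0.79, -0.51 and -0.38 in BBMP livers. All BBMP livers were lower, and the difference was -0.34 ± 0.13 (SE; limma adjusted p = 0.443), or -0.22 without BBMP 1. The apolipoprotein Apoc3 differed by -0.23 ± 0.11 (SE). With quantile normalisation the median of this list was -0.08.

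The list's genes of bile acid synthesis, named after their values were seen, did not share 1 direction. Cyp7a1, the rate-limiting enzyme of bile acid synthesis, was at -1.39, -1.38 and -2.26 in corn oil and at -2.73, -0.82 and -2.93 in BBMP livers. BBMP 1 and BBMP 3 were below every corn oil liver and BBMP 2 was above all of them. The difference was -0.48 ± 0.59 (SE; limma adjusted p = 0.783), and it ranged from -1.15 without BBMP 2 to -0.10 without BBMP 3. Cyp8b1, which directs synthesis to cholic acid, differed by 0.52 ± 0.31 (SE), and by 0.84 without corn oil 1. Cyp7b1, an enzyme of the alternative pathway, differed by -0.44 ± 0.22 (SE). The conjugation enzymes Slc27a5 and Baat differed by -0.57 ± 0.31 and 0.04 ± 0.10 (SE).

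LXR targets, 14 tested of 15, were higher for 7 and lower for 7, with a median of -0.02. In all, 1 (7.14%) had an unadjusted limma p under 0.05, against 10.8% of all features, and 0 passed adjustment. Fasn, the fatty acid synthase, was at 0.56, 0.82 and 0.91 in corn oil and at 0.17, 0.45 and 0.10 in BBMP livers, without overlap. Its difference was -0.52 ± 0.14 (SE; limma adjusted p = 0.401). Mlxipl, a factor that senses carbohydrate, differed by -0.26 ± 0.13 (SE). The sterol exporter Abcg8 differed by 0.89 ± 0.43 (SE), but it was well above background in 2 of 3 corn oil and 3 of 3 BBMP livers, so it was tested only through the group where it was high. Its difference was 0.17 with normexp background correction, 0.47 without corn oil 2 and 1.38 without corn oil 3.

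Clock-linked targets of the ROR and REV-ERB receptors, all 9 tested, were higher for 3 and lower for 6, with a median of -0.18. Among them 2 (22.2%), both lower, had an unadjusted limma p under 0.05, against 10.8% of all features, and 0 passed adjustment. Nfil3, a repressor under clock control, was at 1.11, 1.86 and 1.91 in corn oil and at 0.61, 0.73 and 1.07 in BBMP livers. All BBMP livers were lower, corn oil 1 and BBMP 3 nearly met, and the difference was -0.82 ± 0.25 (SE; limma adjusted p = 0.406). Npas2, a clock activator, differed by -0.34 ± 0.14 and the clock repressor Cry1 by -0.57 ± 0.26 (SE).

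**Figure D4:**
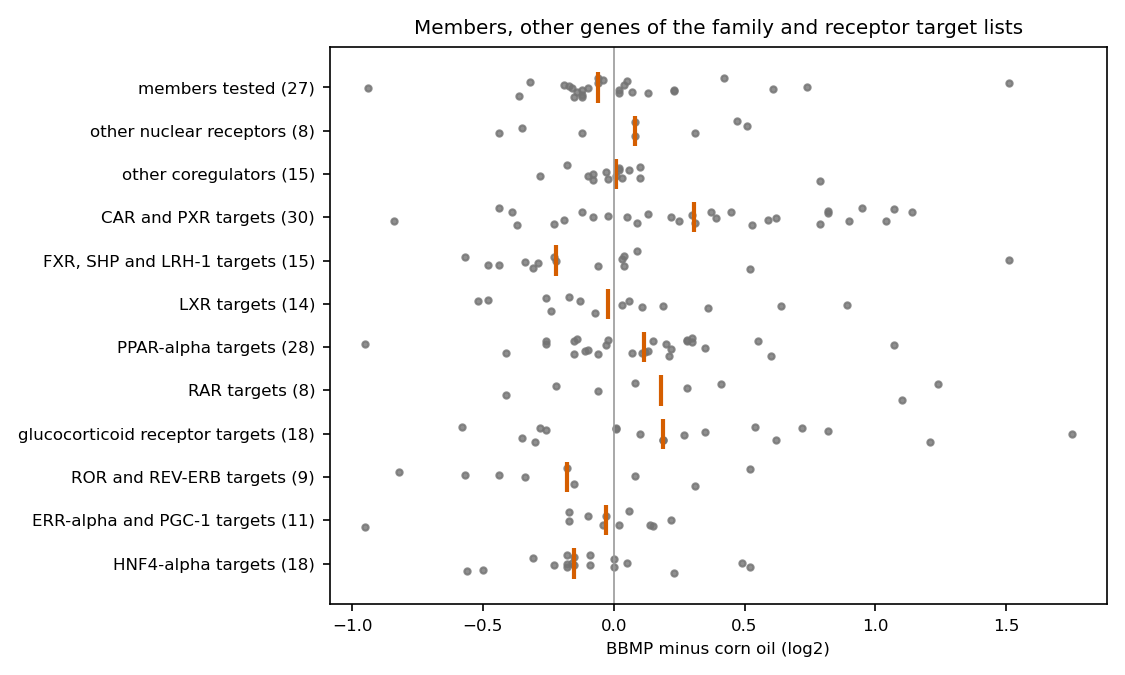
Differences of the 27 tested receptors and coregulators beside other genes of the family and lists of receptor targets. Each grey point is a gene's log2 difference, BBMP minus corn oil, the number of tested genes is in brackets, and the orange bar is the median of the list. The medians run from -0.22 for targets of FXR, SHP and LRH-1 to 0.31 for targets of CAR and PXR, with -0.06 for the receptors and coregulators themselves.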

How the data were processed

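Liver RNA of 6 rats was labelled with Cy3 (0.2 µg, per the labels' protocols) and read on 1 Agilent array each (design 035170, annotated on rn4, per the file headers). The authors deposited scanner files of linear intensity, background-subtracted by Feature Extraction 10.7.1.1 (per the file headers; 10.7 in the submitters' processing notes) and not normalised between arrays, and a table of linear intensity in which each column was that signal over 1 constant (column medians 0.0965 to 0.0998). The reason for that scaling is not given in the sources used here.

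From 62976 spots, 1319 controls and 84 spike-in probes were left out. Accessions without versions were matched to the RefSeq table of GRCr8, which named 27460 of 61573 probes (44.6%). Intensities were divided by the 75th percentile of their array (450.1 to 570.4) and put on the log2 scale. Testing required a probe to be well above background throughout at least 1 group, and the probe of highest mean stood for its gene. Outlier spots (1 to 21 an array) were dropped, saturated ones were not. The test was limma's moderated two-sided test (limma 3.58.1, R 4.3.3, lmFit and eBayes), and p-values were adjusted by Benjamini-Hochberg over 28112 features, with 0.05 as the threshold. The fit was tested on simulated data. Other software was Python 3.11.15, with numpy 2.4.6, pandas 2.3.3 and matplotlib 3.10.9. Promoter windows came from RefSeq.

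The genes and lists were chosen with earlier results of these data known. Of the 27 tested genes, levels in every liver are given for those with an unadjusted p under 0.05, with groups that do not overlap and a difference of at least 0.2, or with a difference of at least 0.5, and for some others. Genes of the target and marker lists are given mostly by their difference alone. Up to 3 genes with the smallest p are named from each list, and 1 of these is not reported here. Lists not described in the report gave these counts: Kupffer cell markers, 8 of 8 tested, were higher for 8, with sums of 6.64 to 7.30 in corn oil and 6.91 to 7.40 in BBMP livers. Cholangiocyte markers (5 tested of 6, 2 higher, 3 lower) had sums of 0.17 to 0.64 and 0.41 to 0.70, and lymphocyte markers (4 of 7, 1 higher, 3 lower) of 1.70 to 1.99 and 1.43 to 2.08. The alternatives were normexp (offset 50, on the median spot signal, since no mean spot signal was in the files used here), median scaling, quantile normalisation, the authors' value table, all probes unfiltered, only probes well above background on 6 arrays, every probe tested apart, the mean of a gene's probes, robust moderation with a variance trend, a replicate block, and each array left out in turn. The alternatives for other named genes and list medians were added after seeing the data.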

Additional observations from a re-analysis of the deposited data

How the results depend on the processing

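Of 431 differences of the 27 genes under 16 alternatives, 412 kept their direction and their side of the threshold, 19 reversed, and the lowest adjusted p (limma) was 0.314; 0 genes passed adjustment under any alternative. The reversals touched 12 genes, none with a difference beyond 0.17 in size, and 15 genes never reversed. With normexp, Nr1h2 was at 0.01, Nr2c1 at 0.04 and Nr5a2 at -0.01, and with the mean of a gene's probes Ppard was at -0.10. Leaving out each array gave -0.21 to 0.04 for Nr2c1, -0.36 to 0.02 for Nrip1, -0.21 to 0.19 for Pparg, -0.20 to 0.03 for Nr3c1, -0.17 to 0.21 for Ncoa2, -0.0018 to 0.22 for Ppard, -0.04 to 0.16 for Rarg, -0.02 to 0.07 for Esrra, -0.04 to 0.12 for Hnf4a and -0.24 to 0.0027 for Rxra.

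Features past limma's adjusted p numbered 2, against 0 with normexp, 1 with no filter, 0 with a filter on all 6 arrays, 0 with the replicate block, 4 without corn oil 2 and 0 without corn oil 3 (0 to 4 over the arrays left out). Features at an unadjusted p under 0.05 numbered 3252 with normexp, 2835 with the stricter filter and 3235 with the block, against 3035. Of the 27 genes, 4 had an unadjusted limma p under 0.05 (10.8% of all features). The number was 2 with no filter (7.22%), 2 with the mean of a gene's probes (10.6%), 3 with normexp (11.6%; Nr1i3, Nr1h4 and Nr0b2) and 1 to 3 with an array left out (6.88% to 11.4%). Groups did not overlap for 5 genes, for 2 with normexp (17.5% of all features) and for 6 to 10 with an array left out (24.3% to 31.5%), where fewer livers make overlap rarer. The median difference, -0.06, was -0.05 to 0.01 with an array left out. With the replicate number as a block, 3 of the 27 genes had an unadjusted limma p under 0.05 (11.5% of all features did) and 0 passed adjustment. Whether the numbers pair the rats cannot be settled from the values. Correlations of same-numbered deviations were 0.089, 0.016 and 0.072, and those of differently numbered ones ran from -0.104 to 0.033. Of 687 differences of 43 other genes from the lists, 685 kept direction and side of the threshold, and Cyp3a2 reversed, to -0.03 without corn oil 2 and -0.10 without BBMP 1 (0.34 at most, without BBMP 3). Of 176 list medians, 24 moved. The cause of these changes was not tested. Low signal limits Esr1, Vdr, Thrb, Abcg8 and 1 probe of Nr2f1.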
